A study of Mus musculus with 12 samples.

Results

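The 10 chemokine receptor genes Ccr1, Ccr2, Ccr4, Ccr6, Ccr7, Ccr8, Ccr9, Cxcr4, Cxcr5 and Cxcr6 were followed in regulatory T cells (Tregs) of mice on a high fat diet. They were chosen by symbol, of 19057 gene symbols on the array, and every probe annotated to them was used, which gave 14 probes. All mice were C57BL/6 on the high fat diet and all carried Foxp3Cre, a Cre recombinase driven by the Foxp3 promoter and so limited to Foxp3-expressing cells. The control group was Foxp3Cre alone, and the Tbet flox group (Tbetflox Foxp3Cre) also carried floxed alleles of Tbx21, the gene of the transcription factor T-bet. Tregs had been taken from the spleen or from a fat depot, the perigonadal white adipose tissue (PGWAT), so that the 4 groups were PGWAT control, PGWAT Tbet flox, spleen control and spleen Tbet flox, with 3 single-colour Illumina arrays each. The labels give no age, and they do not say whether the arrays of a group came from separate mice or from pools, so a p-value here covers the spread between arrays, which may be technical. Values below are normalized intensities on the log2 scale, a difference of 1 log2 unit is a doubling, and errors of group means are SD over 3 arrays unless an SE is named.

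Chemokine receptors sit on the surface of white blood cells and steer them along gradients of chemokines, small secreted proteins. Binding of a ligand switches on inhibitory G proteins, which leads to directed movement, and the receptor is then desensitised and taken up. Resting Tregs use Ccr7 to circulate through lymphoid organs, while Tregs in skin, gut, inflamed sites and fat carry other receptors, of which Ccr2, Ccr4, Ccr8, Cxcr6 and Cxcr4 are common examples. T-bet is known to raise Cxcr3, a receptor that takes type 1 T cells to inflamed tissue.

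**Figure D1:**
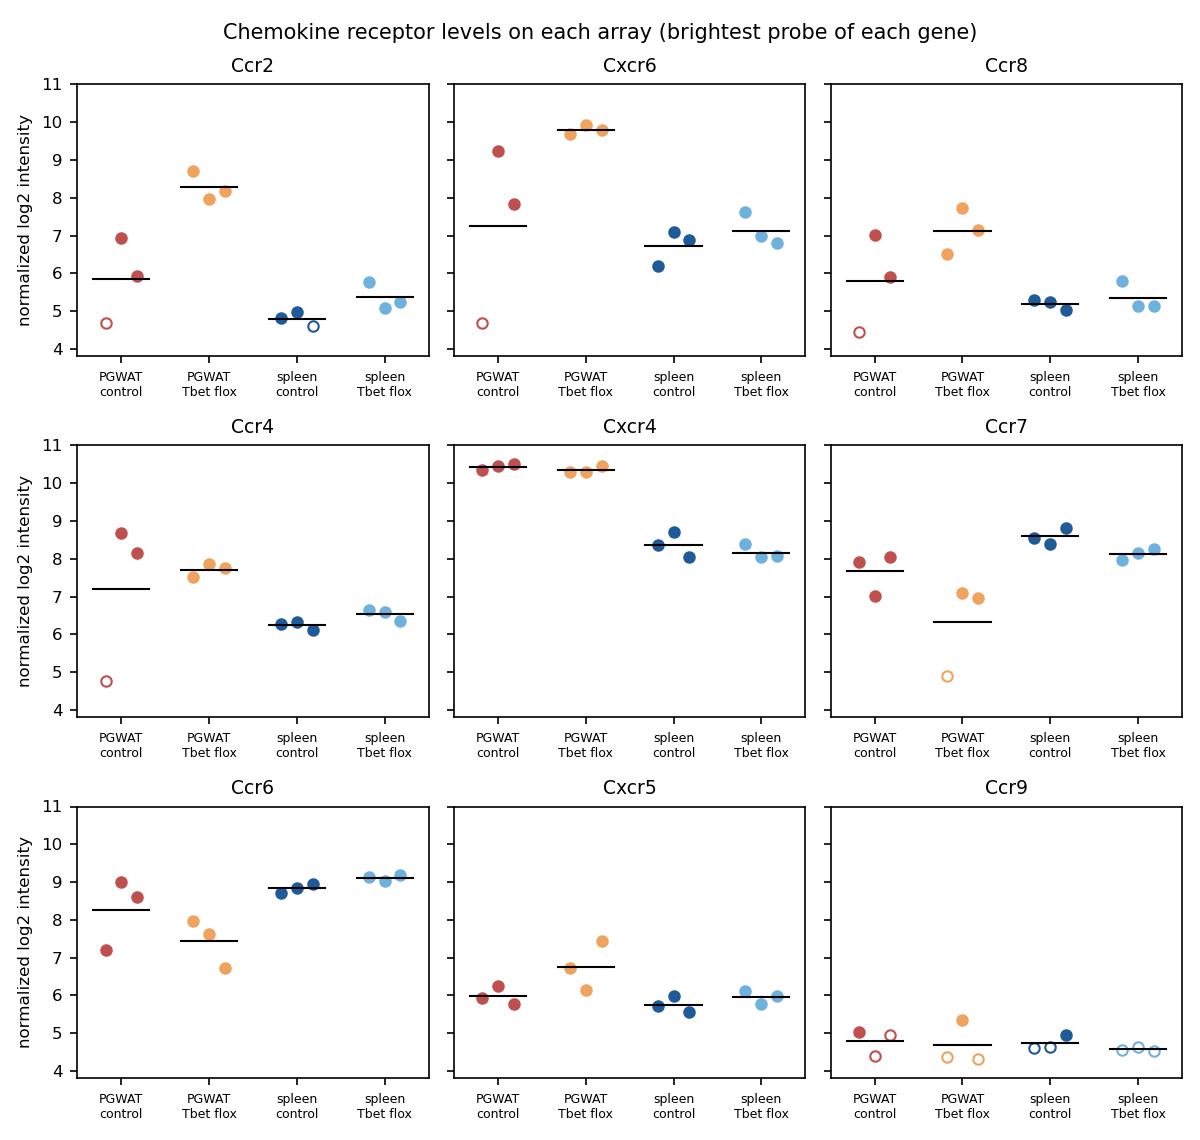
Normalized log2 intensity (y axis) of the 9 receptor genes that passed the filter on dim probes, 1 panel a gene and 1 point an array, by group (x axis), with a line at each group mean and open points where the probe was not above background. Cxcr4 lies higher on all 6 PGWAT arrays than on any spleen array, and Ccr2 and Cxcr6 are highest on the 3 PGWAT Tbet flox arrays, with PGWAT control spread widely.

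Within a group, arrays were less alike in PGWAT than in spleen. Arrays of a PGWAT group correlated with each other at 0.774 to 0.805 (control) and 0.824 to 0.872 (Tbet flox), against 0.978 to 0.984 and 0.985 to 0.991 in the spleen groups, and between 11252 and 17090 probes an array were detected at p under 0.01. Each tissue lay on a chip of its own, so tissue and chip cannot be told apart. PGWAT control 1 stood apart, with the lowest Foxp3 level of the 12 arrays (5.44) and a summed T cell identity level of 4320, against 7240 to 9500 on the other 5 PGWAT arrays. PGWAT Tbet flox 3 had the fewest detected probes (11252) and a summed macrophage level of 1320, against 5970 to 12500 on the other 5. Tbx21, the targeted gene, did not separate the genotypes: it measured 4.62, 7.40 and 4.96 in PGWAT control, 8.45, 4.86 and 4.54 on PGWAT Tbet flox arrays, 4.80, 6.03 and 4.95 in spleen control and 4.94, 4.98 and 4.71 in spleen Tbet flox. The highest of these 12 values belongs to the array labelled PGWAT Tbet flox 1. That would go against its label only if the probe lay in the stretch deleted in Tbet flox mice. That array also had the highest summed level of CD8 T and NK cell markers of the 12 (980), mostly from Cd8b1 (9.65). The other markers of that list, Cd8a (5.96), Klrb1c (5.12) and Klrd1 (6.36), were not highest on that array. The part of such cells in the Tbx21 level was not tested. The sources used here do not say whether the probe lies in the deleted stretch, so it may check nothing, and directions by genotype rest on the labels. Foxp3 itself, the factor that defines Tregs, was above background on all 12 arrays.

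Between the tissues, Cxcr4 was higher in PGWAT than in spleen in both genotypes, and in Tbet flox mice Ccr2, Cxcr6 and Ccr8 were also higher and Ccr7 and Ccr6 lower. Of the 10 receptors, 9 passed the filter on dim probes and were tested, and Ccr1 did not. In Tbet flox mice 4 of the 9 were higher in PGWAT, where 4.52% of all 15308 genes and unnamed probes tested were, and 2 were lower, where 4.96% were. In control mice 1 of the 9 was higher, where 6.52% of all tested were, and none was lower, where 8.58% were. Of the 9 receptors 2 had an unadjusted limma p under 0.05 in control mice, where 29.1% of all tested did. The median receptor change between tissues was 1.18 in Tbet flox and 0.54 in control mice, beside -0.04 and -0.12 over all tested. The arrays of the tissues did not overlap for 8 of 9 receptors in Tbet flox mice (6 above and 2 below, where 15.1% and 22.8% of all tested were) and for 2 of 9 in control mice (1 above and 1 below, where 13.8% and 23% were).

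By genotype, no receptor passed in either tissue. In PGWAT 0 of 9 were called by limma, where 0.209% of all tested were, and 3 of 9 had an unadjusted p under 0.05, where 9.94% did. With 1 common spread for all 12 arrays, 1 of 9 was called (Ccr2), where 3.79% of all tested were. In the spleen 0 of 9 were called by limma, where 1.76% of all tested were, and 2 of 9 had an unadjusted p under 0.05, where 17.9% did. With 1 common spread 0 of 9 were called in the spleen, where 0% of all tested were. Control and Tbet flox arrays were fully apart for 2 of 9 receptors in PGWAT (both above, where 8.54% of all tested were, and none below, where 5.98% were) and for 4 of 9 in spleen (3 above and 1 below, where 11.5% and 11.7% were). The median receptor change was 0.51 in PGWAT and 0.21 in the spleen, beside 0.04 and -0.01 over all tested. The difference of the genotype effect between the tissues, which is also the difference of the tissue effect between the genotypes, passed for 0 of 9 receptors, where 0.0719% of all tested passed, and 1 of 9 had an unadjusted p under 0.05, where 10.5% did. So no receptor was shown to differ between tissues more in one genotype than in the other.

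**Figure D2:**
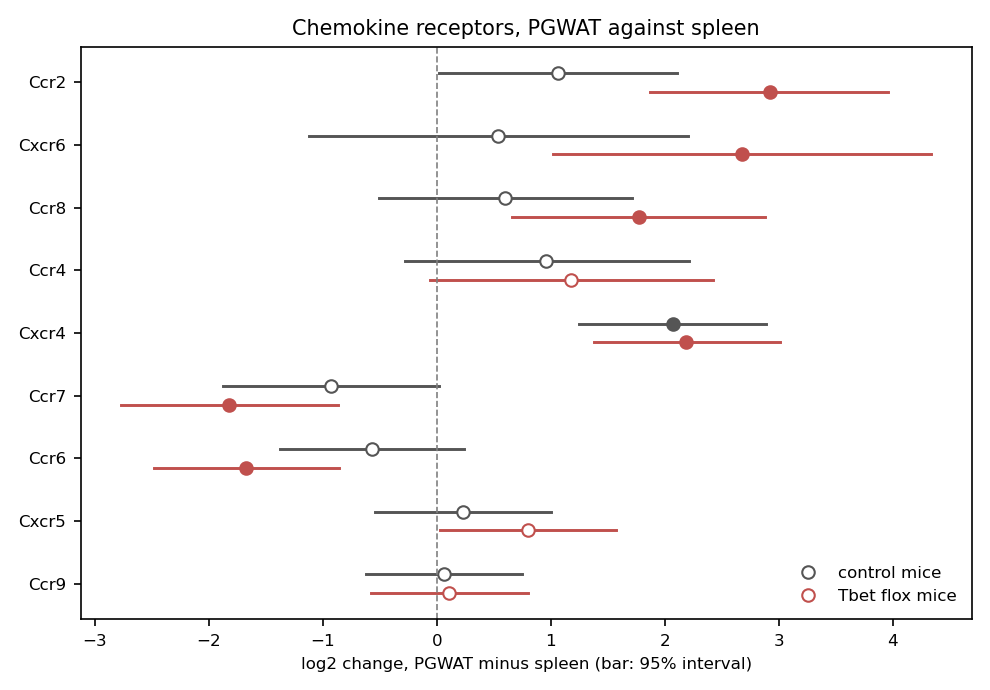
Log2 change from spleen to PGWAT (x axis, PGWAT minus spleen) of the 9 tested receptor genes in control and Tbet flox mice, with 95% intervals from the fit as bars and filled points where the adjusted p passed. Cxcr4 is filled in both genotypes, at 2.07 and 2.19, and Ccr2, Cxcr6, Ccr8, Ccr7 and Ccr6 only in Tbet flox, though the difference between the genotypes passed for none.

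Markers of other cells differed in the same comparisons, on samples labelled as regulatory T cells. Lyz2, a macrophage lysozyme gene, measured 11.90, 12.03 and 11.98 in PGWAT control, 11.94, 11.66 and 9.70 on PGWAT Tbet flox arrays and 7.44 to 8.81 on the spleen arrays. Of 9 tested macrophage and monocyte markers, 8 were higher in PGWAT than in spleen in control mice, where 6.52% of all tested were. In Tbet flox mice 3 were higher (Lyz2, Cd14 and C1qa), where 4.52% of all tested were. The summed intensity of the 9 markers ranged over 10200 to 12500 in PGWAT control and 1320 to 7230 in PGWAT Tbet flox. It ranged over 911 to 1330 in spleen control and 837 to 1000 in spleen Tbet flox, and Cd14 was not above background on any spleen array. All 9 measured lower in PGWAT Tbet flox than in PGWAT control (median -1.73), with none past the threshold. The summed intensity of 10 T cell identity genes ranged over 4320 to 7930 in PGWAT control and 8810 to 9500 in PGWAT Tbet flox, and that of 15 Treg core genes over 3740 to 6030 and 7530 to 8940, against 10200 to 10800 and 5240 to 6200 in spleen control and 9860 to 10600 and 5760 to 7210 in spleen Tbet flox. In these bulk samples fewer Tregs and less receptor RNA per Treg cannot be told apart. The part of these cells in the receptor changes was not tested.

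**Figure D3:**
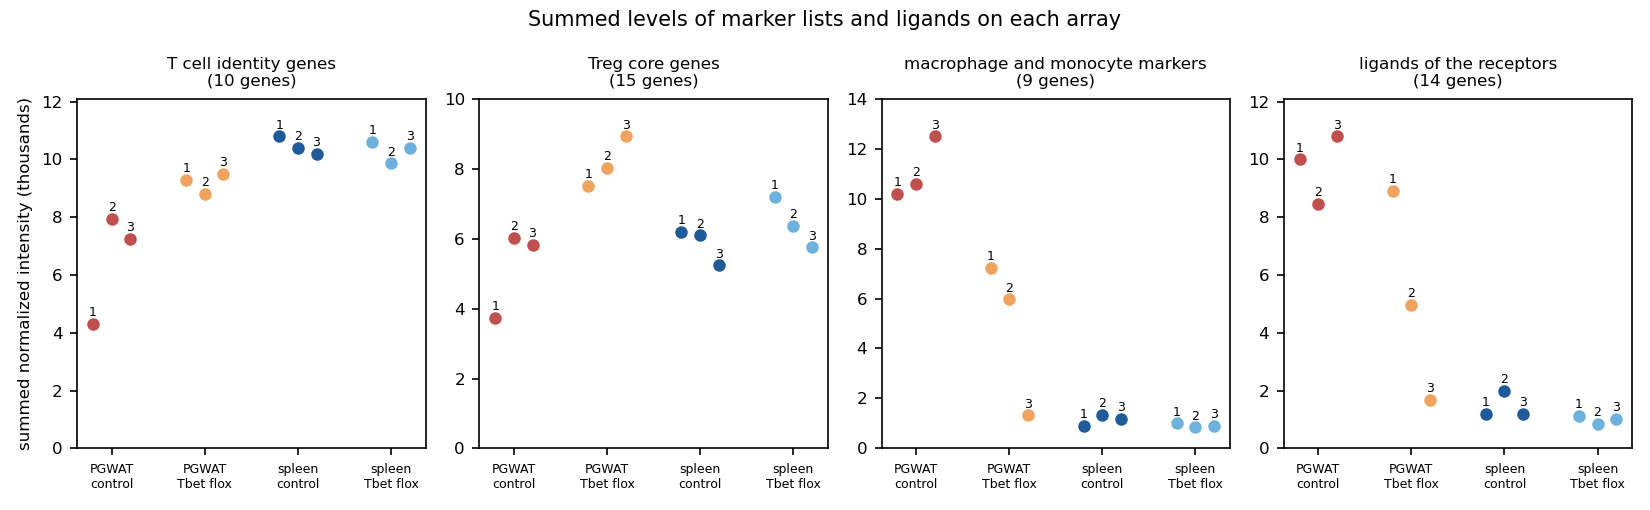
Summed normalized intensity (y axis, linear scale, in units of 1000) of the T cell identity genes, Treg core genes, macrophage and monocyte markers and chemokine ligands on each array, by group (x axis), with the replicate number above each point. Macrophage markers are highest in PGWAT control. Ligands run from 8470 to 10800 there, and PGWAT Tbet flox 1 stands at 8900. On PGWAT Tbet flox 3 macrophage markers and ligands stand at 1320 and 1680, below the highest spleen array, spleen control 2 (1330 and 1990). T cell identity genes are lowest on PGWAT control 1.

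Ccr2 binds Ccl2 and related monocyte chemoattractants and takes monocytes and activated T cells, Tregs among them, into inflamed tissue. Its brighter probe (ILMN_1226563) measured 4.69, 6.94 and 5.93 in PGWAT control, 8.70, 7.96 and 8.18 on PGWAT Tbet flox arrays, 4.81, 4.98 and 4.59 in spleen control and 5.78, 5.08 and 5.23 in spleen Tbet flox. All 3 PGWAT Tbet flox arrays stood above the other 9, and PGWAT control 1 lay among the spleen arrays, below background. In Tbet flox mice Ccr2 was 7.54-fold higher in PGWAT than in spleen (2.92 ± 0.48 log2, SE; 95% interval 1.87 to 3.96; limma adjusted p = 0.0026), and it passed under all 24 alternatives on the brightest probe or the mean of probes, with changes of 1.72 (on the authors' processed values) to 3.12. In control mice the difference was 1.06 ± 0.48 (SE; limma adjusted p = 0.164), with overlapping arrays. By genotype in PGWAT, Ccr2 measured 5.86 ± 1.13 in control and 8.28 ± 0.38 in Tbet flox (n = 3 each), a difference of 2.43 ± 0.65 (SE; 95% interval 1.02 to 3.84) that did not pass (limma adjusted p = 0.242). It passed only with 1 common spread (limma adjusted p = 0.022), and it was 2.21 (0.382) without the array labelled PGWAT Tbet flox 1 and 1.84 (0.374) without PGWAT control 1. In spleen the 3 Tbet flox arrays lay above the 3 control arrays, by 0.57 ± 0.20 (SE; limma adjusted p = 0.158). The genotype difference was 1.85 ± 0.68 larger in PGWAT than in spleen (SE; limma adjusted p = 0.349).

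A second, dimmer probe of Ccr2 (ILMN_1222795) measured 5.29, 4.37 and 4.47 in PGWAT control and 5.84, 5.74 and 5.47 on PGWAT Tbet flox arrays, and it was not above background on any spleen array. All 3 PGWAT Tbet flox arrays stood above the other 9, and PGWAT control 1, where the brighter probe was below background, was the only control array above background for this one. In Tbet flox mice it was at least 1.91-fold higher in PGWAT, with limma adjusted p = 0.0512 among all kept probes. Here a bound sets the brighter group's mean against the lowest detected signals of the dim group's arrays. By genotype in PGWAT this probe differed by 0.97 ± 0.42 (SE; adjusted p = 0.472).

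Cxcr6 binds Cxcl16 and marks T cells that settle in liver, lung and fat. It measured 4.69, 9.25 and 7.84 in PGWAT control, 9.69, 9.94 and 9.79 on PGWAT Tbet flox arrays, 6.19, 7.08 and 6.89 in spleen control and 7.61, 6.98 and 6.79 in spleen Tbet flox. The 3 PGWAT Tbet flox arrays lay close together and above every other array, while the PGWAT controls ran from below background to nearly the same height. Cxcr6 in Tbet flox mice was 6.40-fold higher in PGWAT than in spleen (2.68 ± 0.77 log2, SE; 95% interval 1.02 to 4.34; limma adjusted p = 0.0455). That call stood close to the threshold: it held under 13 of 24 alternatives and was lost without any 1 of the PGWAT Tbet flox arrays (limma adjusted p of 0.15, 0.154 and 0.16), with changes of 2.61 to 2.74. In control mice the difference was 0.54 ± 0.77 (SE; 95% interval -1.12 to 2.20; limma adjusted p = 0.686), and it was 1.83 (0.124) without PGWAT control 1 and -0.45 (0.778) without PGWAT control 2. By genotype in PGWAT the arrays did not overlap, and the difference of 2.54 ± 1.04 (SE; 95% interval 0.30 to 4.79) did not pass (limma adjusted p = 0.437). Without PGWAT control 1 it was 1.26 (0.766).

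Ccr8 and Ccr4 mark Tregs of skin and other barrier tissues, and Ccr4 binds Ccl17 and Ccl22 while Ccr8 binds Ccl1 and, in mice, Ccl8. Ccr8 measured 4.44, 7.01 and 5.90 in PGWAT control, 6.50, 7.73 and 7.14 on PGWAT Tbet flox arrays, 5.28, 5.24 and 5.03 in spleen control and 5.80, 5.12 and 5.14 in spleen Tbet flox. The PGWAT Tbet flox arrays lay above all 6 spleen arrays, and the PGWAT controls lay on both sides of them. Ccr8 in Tbet flox mice was 3.41-fold higher in PGWAT (1.77 ± 0.51 log2, SE; 95% interval 0.66 to 2.88; limma adjusted p = 0.0473), a call that held under 10 of 24 alternatives and was lost without any 1 of the PGWAT Tbet flox arrays (0.0959, 0.226 and 0.17) and with 1 common spread (0.0647). Its change ranged over 0.89 (on the authors' processed values) to 2.08. In control mice the difference was 0.60 ± 0.51 (SE; adjusted p = 0.485), and by genotype in PGWAT it was 1.34 ± 0.69 (SE; limma adjusted p = 0.561). That genotype difference was 0.67 (0.872) without PGWAT control 1 and 1.95 (0.284) without PGWAT control 2.

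Ccr4 measured 4.77, 8.69 and 8.15 in PGWAT control, 7.52, 7.85 and 7.76 on PGWAT Tbet flox arrays, 6.28, 6.33 and 6.10 in spleen control and 6.65, 6.58 and 6.36 in spleen Tbet flox. Apart from PGWAT control 1, which was below background, all PGWAT arrays lay above all spleen arrays. The tissue difference did not pass in control mice (0.96 ± 0.58, SE; limma adjusted p = 0.297) or in Tbet flox mice (1.18 ± 0.58, SE; limma adjusted p = 0.229). Without PGWAT control 1 both passed, at 2.18 (limma adjusted p = 0.0031) and 1.18 (0.0249), and with the 2 groups compared alone the difference passed in Tbet flox mice (0.0171). By genotype in PGWAT the difference of 0.51 ± 0.78 (SE; limma adjusted p = 0.913) turned to -0.71 (0.724) without that array. In spleen the 3 Tbet flox arrays lay above the 3 controls by 0.29 ± 0.24 (SE; limma adjusted p = 0.588).

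Cxcr4 binds Cxcl12, which stromal cells make, and holds white blood cells in bone marrow and tissue niches. It measured 10.34, 10.47 and 10.52 in PGWAT control, 10.29, 10.30 and 10.47 on PGWAT Tbet flox arrays, 8.36, 8.72 and 8.05 in spleen control and 8.38, 8.04 and 8.06 in spleen Tbet flox. The 6 PGWAT arrays lay close together and above the 6 spleen arrays, and the genotypes overlapped in both tissues. PGWAT control 1, which was below background for Cxcr6, Ccr8, Ccr4 and the brighter Ccr2 probe, stood with the other PGWAT arrays for this gene. Cxcr4 was 4.20-fold higher in PGWAT than in spleen in control mice (2.07 ± 0.38 log2, SE; 95% interval 1.25 to 2.89; limma adjusted p = 0.00286) and 4.58-fold in Tbet flox mice (2.19 ± 0.38, SE; 1.38 to 3.01; limma adjusted p = 0.0034). Both calls held under all 24 alternatives, with changes of 1.84 to 2.24 and 1.93 to 2.31. By genotype it differed by -0.09 ± 0.51 in PGWAT (SE; 95% interval -1.19 to 1.01) and by -0.22 ± 0.16 in spleen (SE; -0.56 to 0.13), with limma adjusted p of 0.988 and 0.523. Macrophages also use Cxcr4, and their part was not tested. Over the 6 PGWAT arrays Cxcr4 ranged over 10.29 to 10.52 and the summed macrophage level over 1320 to 12500.

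Ccr7 binds Ccl19 and Ccl21 and guides T cells into and through lymph nodes and the T cell zones of the spleen. It measured 7.92, 7.02 and 8.05 in PGWAT control, 4.90, 7.08 and 6.96 on PGWAT Tbet flox arrays, 8.56, 8.40 and 8.81 in spleen control and 7.98, 8.15 and 8.27 in spleen Tbet flox. In each genotype every PGWAT array lay below every spleen array, and PGWAT Tbet flox 1 was not above background. Ccr7 in Tbet flox mice was lower in PGWAT, with a change of -1.82 ± 0.44 log2 (SE; 95% interval -2.77 to -0.87; limma adjusted p = 0.0214). Without the array labelled PGWAT Tbet flox 1 the change was -1.11 and did not pass (limma adjusted p = 0.178), and neither did it with the 2 groups compared alone (-1.82; 0.0927). On the authors' processed values it was -1.12 and passed (0.0216). In control mice it was -0.93 ± 0.44 (SE; limma adjusted p = 0.182). By genotype Ccr7 differed by -1.35 ± 0.59 in PGWAT (SE; limma adjusted p = 0.477), with overlap (-0.65 and 0.807 without the array labelled PGWAT Tbet flox 1), and by -0.46 ± 0.19 in spleen (SE; adjusted p = 0.211), where the 3 Tbet flox arrays lay below the 3 controls.

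Ccr6 binds Ccl20 and is carried by Tregs and type 17 cells that go to gut and other mucosal sites. Its brighter probe (ILMN_2888448) measured 7.21, 8.99 and 8.59 in PGWAT control, 7.98, 7.63 and 6.72 on PGWAT Tbet flox arrays, 8.72, 8.83 and 8.96 in spleen control and 9.12, 9.03 and 9.19 in spleen Tbet flox. All 3 PGWAT Tbet flox arrays lay below all spleen arrays, while PGWAT control 2 lay above every spleen control. In Tbet flox mice Ccr6 was lower in PGWAT, with a change of -1.67 ± 0.37 log2 (SE; 95% interval -2.48 to -0.86; limma adjusted p = 0.0147), which did not pass without PGWAT Tbet flox 2 (-1.77; limma adjusted p = 0.0538) or without PGWAT Tbet flox 3 (-1.31; 0.122). In control mice it was -0.57 ± 0.37 (SE; limma adjusted p = 0.345), and -0.05 (0.961) without PGWAT control 1. The second, dimmer probe (ILMN_2639012) had a change of -0.58 ± 0.43 in Tbet flox mice (SE; adjusted p = 0.467 among all kept probes), with overlapping arrays. The mean of both probes had a change of -1.13 there and did not pass either (limma adjusted p = 0.0559). By genotype the brighter probe differed by -0.82 ± 0.51 in PGWAT (SE; adjusted p = 0.657) and by 0.28 ± 0.16 in spleen (SE; 0.377), where all 3 Tbet flox arrays lay above the 3 controls.

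Cxcr5 binds Cxcl13 and takes T cells into B cell follicles. Its 3 probes did not agree on the tissues. The probe with the highest mean level (ILMN_1219316) was above background on all 12 arrays and measured 5.92, 6.24 and 5.78 in PGWAT control, 6.71, 6.13 and 7.43 on PGWAT Tbet flox arrays, 5.72, 5.98 and 5.56 in spleen control and 6.11, 5.76 and 5.99 in spleen Tbet flox. It measured higher in PGWAT by 0.23 ± 0.36 in control (SE; limma adjusted p = 0.716) and 0.80 ± 0.36 in Tbet flox mice (SE; limma adjusted p = 0.187). Both other probes measured the other way. The probe ILMN_2990494 was above background on all 6 spleen arrays and on none of the 6 PGWAT arrays, and it was at least 1.64-fold lower in PGWAT in control (limma adjusted p = 0.0113 among all kept probes) and in Tbet flox mice (at least 1.64-fold, 0.0232). The probe ILMN_2990502 was above background on all 6 spleen arrays and on 1 of 6 PGWAT arrays, and it was at least 1.94-fold lower in Tbet flox mice (limma adjusted p = 0.0278) and did not pass in control mice (-0.69; 0.271). No direction can therefore be given for Cxcr5 between the tissues, and by genotype none of its 3 probes passed.

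**Figure D4:**
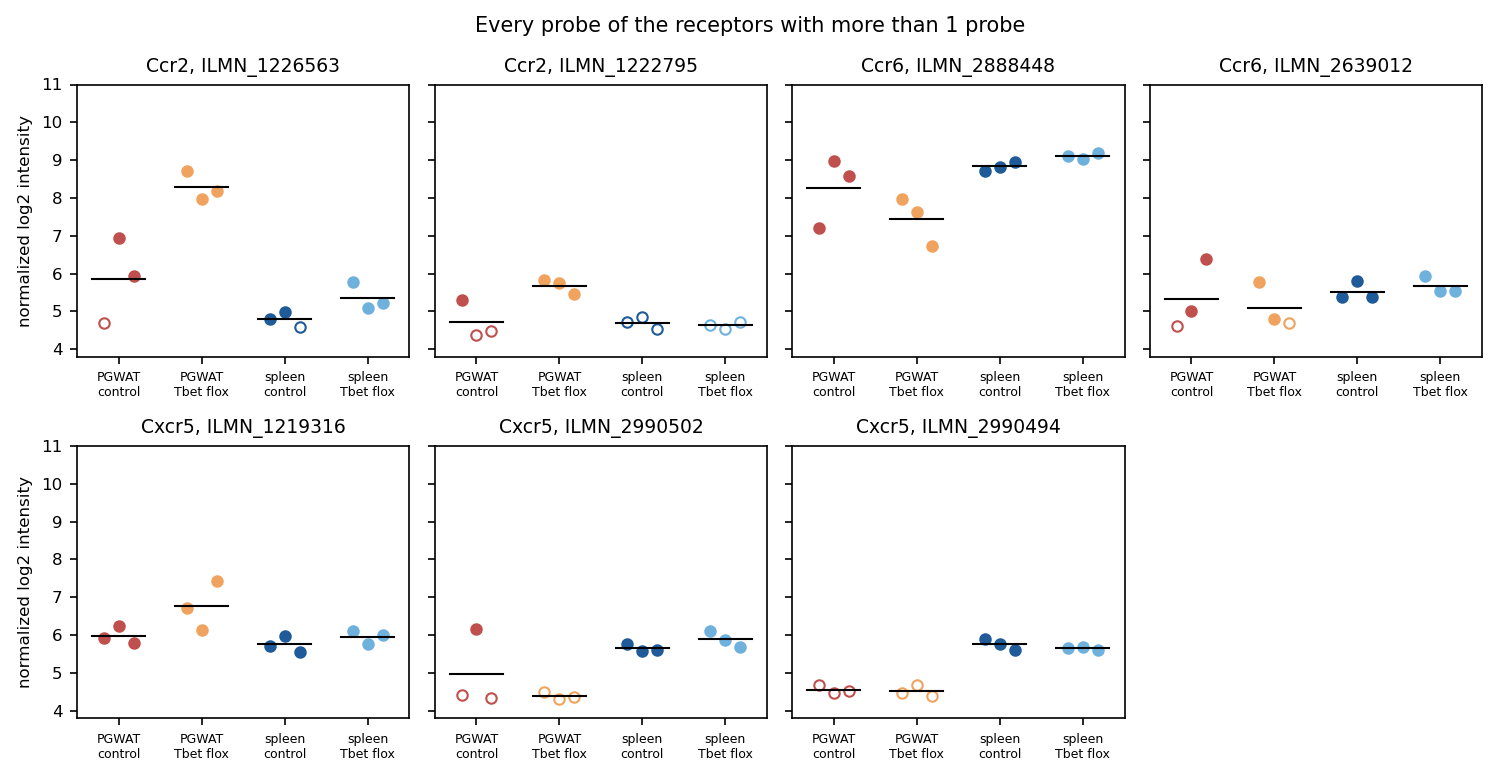
Normalized log2 intensity (y axis) of every kept probe of Ccr2, Ccr6 and Cxcr5, 1 panel a probe and 1 point an array, by group (x axis), with group means as lines and open points where the probe was not above background. The 2 dimmer Cxcr5 probes are open on nearly all PGWAT arrays and filled on all spleen arrays, unlike the brightest one.

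Ccr9 and Ccr1 were near or below background. Ccr9, which binds Ccl25 and takes T cells to the small intestine, was above background on 3 of 12 arrays, with levels of 4.31 to 5.34, and no comparison passed (limma adjusted p of 0.577 to 0.987). Ccr1, a receptor of Ccl3, Ccl5 and other inflammatory chemokines, was not above background on any of the 12 arrays, with levels of 4.27 to 4.63. No difference of these genes was detectable at this signal.

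**Figure D5:**
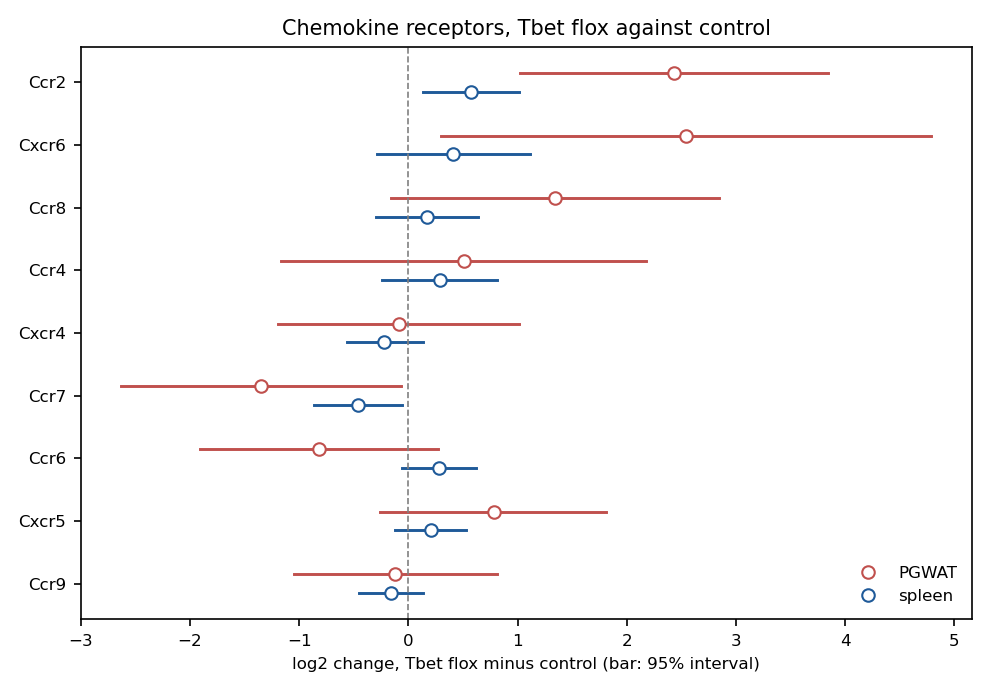
Log2 change from control to Tbet flox (x axis, Tbet flox minus control) of the 9 tested receptor genes in PGWAT and spleen, with 95% intervals from the fit as bars; open points did not pass. The PGWAT intervals are wide, and those of Ccr2 (1.02 to 3.84), Cxcr6 (0.30 to 4.79) and Ccr7 (-2.63 to -0.07) leave out 0 before adjustment; without PGWAT Tbet flox 1 the Ccr7 change is -0.65.

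By group means, Ccr2, Cxcr6, Ccr8 and Ccr4 shared 1 order, with PGWAT Tbet flox first, then PGWAT control, spleen Tbet flox and spleen control. Neighbours in it whose arrays overlapped were PGWAT control and spleen Tbet flox for all 4 (5.86 ± 1.13 and 5.37 ± 0.37 for Ccr2, 7.26 ± 2.33 and 7.13 ± 0.43 for Cxcr6, 5.78 ± 1.29 and 5.35 ± 0.38 for Ccr8, 7.20 ± 2.13 and 6.53 ± 0.15 for Ccr4). The PGWAT groups overlapped for Ccr8 (7.12 ± 0.62 in Tbet flox) and Ccr4 (7.71 ± 0.17 in Tbet flox), and the spleen groups for Cxcr6 (6.72 ± 0.47 in control) and Ccr8 (5.18 ± 0.13 in control). For Ccr4 the order rests on PGWAT control 1, without which its change by genotype in PGWAT was -0.71. The brightest Cxcr5 probe had the same order of means (6.76, 5.98, 5.96 and 5.75), and its other probes did not. Ccr7 had another order, with 8.59 ± 0.21 in spleen control, 8.13 ± 0.14 in spleen Tbet flox, 7.66 ± 0.56 in PGWAT control and last 6.31 ± 1.22 in PGWAT Tbet flox. For Ccr6 spleen Tbet flox stood first (9.12 ± 0.08), then spleen control (8.84 ± 0.12), PGWAT control (8.26 ± 0.93) and PGWAT Tbet flox (7.44 ± 0.65). For both of these genes the spleen groups did not overlap, and the other neighbours did. These orders are of probes within a gene, and levels of different receptors are not set against each other.

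Most of the tested ligands of these receptors measured brighter in the PGWAT samples than in the spleen samples. Of 21 ligand genes 14 were tested. In control mice 9 were higher in PGWAT, where 6.52% of all tested were, and 1 was lower, where 8.58% were. The median change was 3.07 (2.86 with genes dim in 1 group at their bound), beside -0.12 over all tested. In Tbet flox mice 6 were higher, where 4.52% of all tested were, and none was lower, where 4.96% were. The median there was 2.11 (1.81 at the bounds), beside -0.04. Ccl2, the main Ccr2 ligand, measured 9.28, 8.78 and 9.06 in PGWAT control, 8.32, 8.10 and 5.51 on PGWAT Tbet flox arrays and 4.30 to 4.49 on the spleen arrays, none of which was above background. It was at least 18.9-fold higher in PGWAT in control mice (limma adjusted p = 2.29e-05) and at least 5.88-fold in Tbet flox mice (0.00149). The tested probe of Ccl7, another Ccr2 ligand, was not above background on any spleen array either, and it was at least 100-fold higher in PGWAT in control mice and at least 37.8-fold in Tbet flox mice (limma adjusted p of 5.56e-07 and 6.23e-06). Cxcl16, the Cxcr6 ligand, measured 8.63, 9.19 and 7.73 in PGWAT control and 7.83, 6.48 and 6.95 on PGWAT Tbet flox arrays. It was at least 13.2-fold higher in PGWAT in control mice (limma adjusted p = 1.44e-05) and 2.55 ± 0.36 log2 units higher in Tbet flox mice (SE; 0.000775).

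Ccl9, a Ccr1 ligand, was at least 49.9-fold higher in PGWAT in control mice (limma adjusted p = 3.33e-05) and at least 10.9-fold in Tbet flox mice (0.00175), and it did not pass by genotype. Cxcl12, the Cxcr4 ligand, measured 8.83, 6.02 and 9.57 in PGWAT control and 9.22, 6.53 and 4.47 on PGWAT Tbet flox arrays, and was at least 10.1-fold higher in PGWAT in control mice (limma adjusted p = 0.00625). The ligand that was lower, Ccl25, binds Ccr9, and it changed by -2.33 ± 0.63 in control mice (SE; limma adjusted p = 0.025). By genotype in PGWAT 12 of 14 ligands measured lower in Tbet flox, where 52.4% of all tested measured higher. Of the 14, 1 passed, where 0.209% of all tested did. It was Ccl3, a ligand of Ccr1, with 8.04, 7.78 and 8.01 in control and 5.54, 6.03 and 4.36 in Tbet flox (-2.63 ± 0.43, SE; limma adjusted p = 0.0381). Ccl17, a Ccr4 ligand, measured 5.68, 8.22 and 7.50 in PGWAT control and was not above background on any PGWAT Tbet flox array, at least 4.6-fold lower (limma adjusted p = 0.0785). In spleen 1 of 14 passed, where 1.76% of all tested did. It was Ccl5, a ligand of Ccr1, which was lower in Tbet flox (-0.90 ± 0.19, SE; limma adjusted p = 0.039). The summed ligand level ranged over 8470 to 10800 in PGWAT control and 1680 to 8900 in PGWAT Tbet flox. Of the PGWAT arrays, PGWAT Tbet flox 3 was lowest for the macrophage markers and for the ligands also. The part of macrophages in these ligand levels was not tested.

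Listed receptors outside the 10, which were chemokine receptors and Gpr183, which is not one, were mostly dim. Of these 15 genes 4 were tested, Ccrl2, Cxcr3, Ackr4 and Gpr183, and 1 passed in any comparison. Cxcr3 measured 7.93, 8.53 and 7.65 in spleen control and 5.00, 4.38 and 4.67 in spleen Tbet flox, a fall of -3.35 ± 0.29 log2 units (SE; limma adjusted p = 0.000433), which with 1 common spread had an adjusted p of 1. The PGWAT control arrays had 5.92, 7.59 and 8.0 and the PGWAT Tbet flox arrays 7.81, 5.23 and 4.46, a difference with limma adjusted p = 0.716. The high Tbet flox array was the one labelled PGWAT Tbet flox 1, which also had the highest Tbx21 level.

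Of 24 genes of receptor signalling and desensitisation 22 were tested. Between tissues 1 was higher and 1 lower in control mice, where 6.52% and 8.58% of all tested were. In Tbet flox mice 1 was higher, where 4.52% of all tested were, and none was lower, where 4.96% were. By genotype 2 were lower in spleen, where 1.76% of all tested passed in either direction. None passed by genotype in PGWAT, where 0.209% of all tested did. Rgs2, which limits signalling of G protein coupled receptors, measured 8.25, 8.23 and 6.90 in PGWAT Tbet flox and 5.26, 5.19 and 5.49 in spleen Tbet flox (2.48 ± 0.45, SE; limma adjusted p = 0.0047). In control mice Rgs14 was lower in PGWAT (-1.97 ± 0.57, SE; limma adjusted p = 0.0347) and Rgs18, not above background in spleen, was at least 1.73-fold higher (0.0284). Pik3cg, the phosphoinositide kinase that works downstream of these receptors, fell by 0.73 ± 0.11 in spleen Tbet flox (SE; limma adjusted p = 0.0118), and Prex1, an activator of Rac proteins, fell by 0.73 ± 0.17 (SE; 0.0493).

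Of 10 tested genes of lymphoid recirculation and retention, 4 were lower in PGWAT in control mice, where 8.58% of all tested were. In Tbet flox mice 1 was lower, where 4.96% of all tested were. None was higher in either genotype, where 6.52% (control) and 4.52% (Tbet flox) of all tested were. Lef1, a transcription factor of resting T cells, measured 7.54, 7.99 and 7.13 in PGWAT control, 7.71, 8.46 and 8.69 on PGWAT Tbet flox arrays, 9.97, 9.78 and 10.03 in spleen control and 9.44, 9.70 and 9.78 in spleen Tbet flox. It was lower in PGWAT in both genotypes (-2.37 and -1.35; limma adjusted p of 0.000425 and 0.0219). The integrin gene Itgae (-2.42; 0.00304), Cd69 (-1.75; 0.00381), which keeps T cells in tissue, and Foxo1 (-1.63; 0.0465), a regulator of homing genes, were lower in control mice. On the same PGWAT control arrays 5 of 10 T cell identity genes were also lower and 4 of 15 Treg core genes, Gpr83, Izumo1r, Nt5e and Itgae. Itgae is thus counted in the recirculation and retention list and again here. In PGWAT Tbet flox against spleen Tbet flox, 3 Treg core genes were lower (Gpr83, Izumo1r and Nt5e) and Ctla4, a brake on T cell help, was higher by 1.25 ± 0.32 (SE; limma adjusted p = 0.0263).

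Markers of further cell types also moved with tissue. Of all tested, 6.52% were higher in PGWAT in control mice and 4.52% in Tbet flox mice. Of 6 tested adipocyte and stroma markers 4 were higher in PGWAT in control mice and 2 in Tbet flox mice, led by Dcn, a stromal matrix gene (at least 22.5-fold and at least 22.9-fold), with sums of 579 to 3700 in PGWAT control, 825 to 2060 in PGWAT Tbet flox and 221 to 264 on the spleen arrays. Of 4 tested mast cell and granulocyte markers 1 was higher in each genotype, S100a9 in control and Cpa3 in Tbet flox mice, with sums of 231 to 635 in PGWAT and 83.6 to 132 in spleen. Cpa3, a mast cell protease, was also higher in PGWAT Tbet flox than in PGWAT control (2.81 ± 0.49, SE; limma adjusted p = 0.0404). Of 5 tested dendritic cell markers 1 was higher in PGWAT in both genotypes, Cd209a, while none of 2 B cell and of 4 CD8 T and NK cell markers passed in any comparison. The part of these cells in the receptor changes was not tested.

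The genes most like the receptors in pattern were looked up for the 3 receptors whose group means varied most, Ccr2 (SD of the 4 means 1.53), Cxcr6 (1.4) and Cxcr4 (1.23). Likeness was the Pearson correlation over the 12 arrays, a description without a p, since the arrays form 4 groups and share 2 chips. Ccr2 was most like Ctla4 (0.976), Srgn (0.969) and Pmaip1 (0.967). Cxcr6 was most like Samsn1 (0.976), Malt1 (0.964) and Spdya (0.958). Cxcr4 was most like Lgals3 (0.995), Anxa4 (0.993) and Myadm (0.989), each of which had PGWAT means of at least 10.07 and spleen means of at most 8.10.

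Of the 10 receptor genes 7 lie on mouse chromosome 9, by the RefSeq annotation of GRCm38.p6, and several are neighbours of other receptor genes. Cxcr6 lies between Fyco1 and Xcr1, Ccr9 before Fyco1, Ccr1 between Xcr1 and Ccr1l1, and Ccr8 next to Cx3cr1. Ccr6 lies on chromosome 17, Ccr7 on chromosome 11 and Cxcr4 on chromosome 1. The promoters of the 4 receptors that were higher in PGWAT of Tbet flox mice are shown because these genes moved together in that comparison. Each is the 250 bases before the start of the gene, from RefSeq on GRCm38.p6, written 5′ to 3′ on the gene's strand. Capitals mark GATA words, the word AGATAA, the word AGATAG, the word TGATAA or the word TGATAG on either strand, which GATA factors are known to bind.
Ccr2, chr9:124101933-124102182, plus strand: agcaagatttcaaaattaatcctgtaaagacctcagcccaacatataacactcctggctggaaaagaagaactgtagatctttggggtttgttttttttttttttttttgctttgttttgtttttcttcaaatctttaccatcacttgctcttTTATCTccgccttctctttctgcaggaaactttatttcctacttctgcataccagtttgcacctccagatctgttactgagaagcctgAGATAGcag
Ccr8, chr9:120091883-120092132, plus strand: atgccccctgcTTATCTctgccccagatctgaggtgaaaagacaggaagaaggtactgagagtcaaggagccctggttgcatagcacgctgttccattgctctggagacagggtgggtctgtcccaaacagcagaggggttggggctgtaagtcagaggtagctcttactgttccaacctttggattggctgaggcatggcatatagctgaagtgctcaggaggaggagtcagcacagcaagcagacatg
Cxcr6, chr9:123806227-123806476, plus strand: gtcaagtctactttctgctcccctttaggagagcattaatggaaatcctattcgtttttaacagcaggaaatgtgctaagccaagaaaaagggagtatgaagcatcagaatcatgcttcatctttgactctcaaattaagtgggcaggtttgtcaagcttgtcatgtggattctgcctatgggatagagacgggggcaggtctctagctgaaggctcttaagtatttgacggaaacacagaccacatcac
Cxcr4, chr1:128592300-128592549, minus strand: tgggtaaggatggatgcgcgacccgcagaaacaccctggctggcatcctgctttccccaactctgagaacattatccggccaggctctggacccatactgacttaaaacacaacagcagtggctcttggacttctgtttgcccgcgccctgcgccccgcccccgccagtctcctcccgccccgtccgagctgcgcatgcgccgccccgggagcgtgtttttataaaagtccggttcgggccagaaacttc

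The search for these words covered 250 bases before to 50 bases after the start. It could be made for 8 of the 10 receptors, with 9 promoters (Ccr6 has 2), and Ccr7 and Cxcr5 were not searched here. A GATA word was found in 4 of the 9 promoters (those of Ccr2, Ccr8 and Ccr9 and 1 of the 2 of Ccr6), beside 29.8% of 32851 promoters of the same length. Of the printed promoters, that of Ccr2 holds 2 such words, that of Ccr8 holds 1, and those of Cxcr6 and Cxcr4 hold none. The T-box word TCACACC, the core of the sites that T-bet binds, searched on both strands, was in 0 of the 9 promoters, beside 3.98% of all promoters. These matches are letters in a window and show no binding.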

How the data were processed

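Per the file headers, the deposited table gives for each probe a bead-averaged intensity and a detection p-value on every array, and both were made with GenomeStudio per the submitters' processing notes, whose version is not given in the sources used here. Total RNA was amplified with NuGen Ovation Pico WTA System V2, per the labels. The authors' processed values, deposited as intensity on a linear scale, served as an alternative, as log2 values.

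Intensities were background corrected and quantile normalized to a log2 scale with neqc (offset 16) of limma 3.58.1 in R 4.3.3. Of 45281 probes 22833 had a detection p under 0.05 (called above background) on at least 3 arrays and were kept, and the brightest stood for its gene, which left 15308 tested (10882 named). One linear model held 4 group means over 12 arrays, with a weight for PGWAT arrays (0.313) and for spleen arrays (3.20), moderated, two-sided, with 8 residual degrees of freedom. Benjamini-Hochberg adjustment ran over all tested, and the threshold was an adjusted p under 0.05. The weights were used because the median SD within groups was 0.552 and 0.496 in PGWAT and 0.187 and 0.15 in spleen. No 2 arrays correlated above 0.991, and 12 arrays limit the precision.

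The receptors, gene lists and the weights were chosen with earlier results of these data known. From each list up to 4 genes past the threshold, or the 2 with the smallest p, may be named, beside Tbx21 and the 3 genes most like each of 3 receptors. Foxp3, Cxcl12, Ccl17, Ccl25 and, in Tbet flox mice, Cxcl16 were also named, after their values were seen. Lists are described by counts and medians, without a test. The fit was also run on simulated data, whose outcome is not given here, so no support is drawn from it.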

Additional observations from a re-analysis of the deposited data

How the results depend on the processing

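The alternatives were 1 common spread, the groups compared alone, a weight for each array, median scaling, the authors' processed values, an offset of 50, no filter and a stricter filter on dim probes, every kept probe, the mean of a gene's kept probes, a replicate block and leaving out each array. Leaving out PGWAT control 1 and PGWAT Tbet flox 3 together and the other probes of a receptor were added after seeing the data. Cxcr4 passed between tissues in both genotypes, and Ccr2 in Tbet flox mice, under all 24 alternatives (brightest probe or mean of probes); Ccr7 passed under 22, Ccr6 under 20, Cxcr6 under 13 and Ccr8 under 10. The cause of a lost call was not tested.

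Receptors called by limma, main values 0 for genotype in PGWAT, 6 for tissue in Tbet flox and 1 for tissue in control mice, came to 1 for genotype in PGWAT with 1 common spread, to 3 for tissue in Tbet flox and 2 for tissue in control without PGWAT control 1 and PGWAT Tbet flox 3, and to between 3 and 7 (Tbet flox) and 1 and 2 (control) when 1 array was left out. For genotype in PGWAT 32 of all tested were called. That count was 580 with 1 common spread, 0 with the groups alone, 12 with median scaling, 5 with the replicate block, 4 without the 2 arrays, and 6 to 57 when 1 array was left out. For genotype in spleen 269 were called, and 0, 10 and 106 in the same 3 settings, 649 with a weight for each array, 488 on the authors' processed values, 476 with an offset of 50, 50 with no filter on dim probes, 16 with the replicate block, and 6 to 346 with 1 array left out. The genotype effect between tissues gave 11, and 18 with 1 common spread, on the authors' processed values and with the mean of kept probes, 7 with median scaling and with the replicate block, 30 with an offset of 50, 43 with no filter, 2 without the 2 arrays, and 2 to 61 with 1 array left out. Tissue in Tbet flox mice gave 1451, 2213 with a weight for each array, 844 without the 2 arrays and 562 to 1638 with 1 left out, and tissue in control mice 2311, 1449 and 1513 to 2240 in the last 2 settings. A count moved by over 1.5 times without PGWAT Tbet flox 1, 2 or 3 for tissue in Tbet flox mice (562, 818 and 703), without PGWAT control 1 for tissue in control mice (1513), without spleen control 1 (19) or spleen Tbet flox 1, 2 or 3 (6, 107 and 22) for genotype in spleen, without any 1 of the 12 arrays for genotype in PGWAT, and, for the genotype effect between tissues, without PGWAT control 2 (61) or 3 (2), any PGWAT Tbet flox array (5), spleen control 2 (6) or spleen Tbet flox 2 (7) or 3 (6).

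Directions turned only for receptors and comparisons that had not passed. Ccr4 turned for genotype in PGWAT without the 2 arrays (-0.73), and for the genotype effect between tissues with median scaling (-0.08), the authors' values (-0.03) and without the 2 arrays (-1.02); without PGWAT control 1 alone these were -0.71 and -1.0. With 1 array left out, Ccr4 ranged over -0.71 to 1.25 and -1.0 to 0.96. Cxcr5 turned between tissues in control mice with median scaling (-0.04), and with the mean of kept probes in control (-0.55) and Tbet flox mice (-0.61) and for the genotype effect between tissues (-0.06). Of its other probes, ILMN_2990502 gave -0.69 in control mice and ILMN_2990494 gave -0.12 for genotype in spleen. Against groups not above background they gave only bounds, of -0.72 in control mice (ILMN_2990494), -0.95 and -0.71 in Tbet flox mice, and -0.03 for genotype in PGWAT (ILMN_2990502). Where a probe was not above background in both groups it gave no value. Cxcr4 turned for the genotype effect between tissues with median scaling (-0.06).

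Ccr9, near background, changed sign for genotype in PGWAT with a weight for each array (0.09), median scaling (0.02) and without the 2 arrays (0.18), for tissue in control mice with median scaling (-0.04) and without the 2 arrays (-0.05), and on the authors' values for the genotype effect between tissues (-0.01) and for tissue in Tbet flox mice (0.00). With 1 array left out, Ccr9 ranged over -0.45 to 0.07 for genotype in PGWAT, -0.05 to 0.26 and -0.22 to 0.29 for tissue in control and Tbet flox mice, and -0.29 to 0.23 between tissues. In control mice the tissue difference then ranged over -0.01 to 1.27 for Ccr8 and -0.45 to 1.83 for Cxcr6, lowest without PGWAT control 2 and highest without PGWAT control 1. Ccr8 for genotype in spleen ranged over -0.05 to 0.29, and Cxcr4 for the genotype effect between tissues over -0.05 to 0.29.

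Deviations of same-numbered arrays from their group means correlated at -0.199 to 0.0757. No label says that the replicate numbers pair samples, and correlations from 3 arrays a group cannot settle it. With the replicate block Ccr8 (limma adjusted p = 0.0643) and Cxcr6 (0.0664) lost their calls, and no other receptor call changed. For genotype in PGWAT, changes over the alternatives ranged over 1.47 to 2.97 (Ccr2), 1.26 to 3.54 (Cxcr6), 0.66 to 1.95 (Ccr8), -1.77 to -0.65 (Ccr7) and -1.35 to -0.46 (Ccr6). For tissue in control mice they ranged over 0.45 to 1.65 (Ccr2), 0.22 to 2.18 (Ccr4) and -0.93 to -0.05 (Ccr6). Median scaling moved the median of all tested from -0.04 to -0.28 for tissue in Tbet flox, from -0.12 to -0.22 in control, from 0.04 to -0.08 for genotype in PGWAT and from 0.05 to -0.07 between tissues. A chip term could not be fitted between tissues. Ccr1 and Ccr9 lie at background, which hides any difference there.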
